A study of Homo sapiens with 12 samples.

Results

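The transcripts of 10 transcription factors of basal and squamous mammary identity were followed in HCC1806 cells, a human triple-negative breast cancer (TNBC) line. The set comprised SOX9, SOX2, SOX15, TP63, KLF4, KLF5, GRHL2, FOXC1, ELF3 and MYC, found by matching the Ensembl identifiers of the expression table to these symbols, and all 10 were among its 17013 genes. Non-targeting siRNA (siNT) or a pool of siRNAs against the kinase MLK4 (gene MAP3K21, siMLK4) was transfected, doxorubicin or no drug followed 24 h later for another 24 h, and mRNA was sequenced. The study asked which transcriptional responses to doxorubicin, a topoisomerase II poison that breaks DNA, depend on MLK4.

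There were 4 groups of 3 libraries each. The siNT vehicle group and the siMLK4 vehicle group carry the label DMSO and are marked as time 0 in their titles. The study calls them vehicle or DMSO treated in its results and untreated in its methods. The siNT doxorubicin group and the siMLK4 doxorubicin group received 1 μM of the drug. The descriptions of siMLK4 doxorubicin replicates 2 and 3 end in the same library number, and libraries were assigned by title. All groups are 1 cell line after transient transfection, and the replicates are described only as triplicate transfections, so the p-values measure the spread between these libraries, which may be partly technical. The libraries held 16759025 to 19302248 reads assigned to genes, with group medians of 18082509 (siNT vehicle), 17275064 (siNT doxorubicin), 18092154 (siMLK4 vehicle) and 18901864 (siMLK4 doxorubicin). Levels are given as normalized reads, which are reads divided by each library's size factor, as mean ± SD (n = 3). Fold changes are on the log2 scale of the deposited variance-stabilized values, which understates changes of low genes. Changes were called where limma gave an adjusted p under 0.01 (Benjamini-Hochberg, over all 17013 genes) together with a log2 fold change over 0.75 in either direction.

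The mammary gland is lined by inner luminal and outer basal epithelial cells, and basal-like TNBC expresses many genes of the basal layer. TP63 is the master regulator of basal and squamous epithelium, SOX9 and SOX2 are SOX-family factors of progenitor cells, and KLF5, KLF4, GRHL2 and ELF3 regulate epithelial growth, barrier and differentiation genes. FOXC1 is a marker of basal-like breast cancer, SOX15 is a SOX factor of stratified epithelium, and MYC drives ribosome production and cell growth.

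The levels of the receptor genes bear on the triple-negative label, which itself is a protein status. ESR1, encoding the estrogen receptor, had a mean of 92.7 normalized reads in siNT vehicle cells and 46.5, 117 and 49.0 in siNT doxorubicin, siMLK4 vehicle and siMLK4 doxorubicin cells. PGR, encoding the progesterone receptor, had 0 reads in all 6 vehicle libraries, which allows up to 3 reads in each, and 7.26 to 18.5 normalized reads in the 6 doxorubicin libraries. ERBB2, encoding HER2, had a mean of 1459 normalized reads in siNT vehicle cells and 1588, 1893 and 1853 in the same order. The keratins of the basal and squamous list ranged in siNT vehicle cells from 69.6 (KRT6B) to 20880 (KRT5) normalized reads. Between them stood KRT6A at 13800, KRT14 at 6001, KRT17 at 4118, KRT16 at 775.8 and KRT15 at 338.0. The luminal keratins KRT8, KRT18 and KRT19 stood at 22030, 20690 and 24870.

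The 4 siRNAs of the pool are shown because 19 bases of each sequence were found in MAP3K21 and in no other annotated gene, whereas the short seed of siRNA 3 also occurs in the 3′UTRs of 7 of the 10 factors, those of siRNAs 2 and 4 in 2 each, and that of siRNA 1 in 0. Each is printed as its sense strand, and the capitals mark the 7 bases that read the same as a messenger site complementary to guide bases 2 to 8, the seed.
siRNA 1 of the pool: ggaaagaugcuCAGAGAGauu
siRNA 2 of the pool: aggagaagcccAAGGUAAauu
siRNA 3 of the pool: agaagaaacgaGAGGGAAuuu
siRNA 4 of the pool: agaacagauugCAAAGAAauu

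MAP3K21, the target, stood at 553.1, 669.6 and 673.6 normalized reads in siNT vehicle cells and at 103.2, 94.66 and 88.65 in siMLK4 vehicle cells. With doxorubicin it stood at 757.6, 856.1 and 771.6 in siNT cells and at 112.8, 138.4 and 94.35 in siMLK4 cells. All 6 siMLK4 libraries lay far below all 6 siNT libraries. The level fell to 15.1% of that in siNT cells with vehicle (log2 fold change −2.24, SE 0.12, limma adjusted p = 9.735e-08) and to 14.5% with doxorubicin (−2.37, SE 0.12, adjusted p = 1.124e-07).

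The 3′UTRs of SOX9, SOX15 and FOXC1 held no match to any of the 4 seeds in their longest annotated form, of 2032, 203 and 1793 bases. The other 7 factors held at least 1 match, against 58.2% of the 13602 genes with an annotated 3′UTR. The single seeds matched 27.5%, 15.9%, 24.0% and 30.5% of these genes for siRNAs 1 to 4. Site sequences of MYC and GRHL2 are not reported here, and matches are shown for the other 5 factors with a match. Each has 6 bases on each side, on the gene's strand, with the matched bases in capitals (GRCh38).
KLF4, siRNA 3, chr9:107485419-107485425, minus strand: ttggggGAGGGAAgaccag
KLF4, siRNA 3, chr9:107485668-107485674, minus strand: cccgatGAGGGAAggagcc
KLF4, siRNA 4, chr9:107485561-107485567, minus strand: aaaaatCAAAGAAcagatg
KLF5, siRNA 3, chr13:73076589-73076595, plus strand: tctttaGAGGGAAggaata
ELF3, siRNA 3, chr1:202016574-202016580, plus strand: aagaatGAGGGAAggagtt
SOX2, siRNA 3, chr3:181713361-181713367, plus strand: aaaaacGAGGGAAatggga
SOX2, siRNA 4, chr3:181713350-181713356, plus strand: aattttCAAAGAAaaacga
TP63, siRNA 2, chr3:189896214-189896220, plus strand: ctctaaAAGGTAAtgtgtg
TP63, siRNA 3, chr3:189896427-189896433, plus strand: agagggGAGGGAAgggaaa

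MYC held 1 match, to siRNA 3, and GRHL2 held 1 match each to siRNAs 2 and 3. A match is a stretch of shared letters and not a measured site, and the part of such matches in the levels below was not tested. Over all genes, the median log2 fold change of siMLK4 against siNT with vehicle was −0.03 for genes with a match and 0.01 for genes without, and with doxorubicin it was −0.01 and 0.05.

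Doxorubicin in siNT cells raised SOX9 and ELF3 and lowered TP63. These were 3 of 10 factors called (22.7% of all genes), and 4 of 10 had libraries that did not overlap between the groups (62.4% of all genes). In siMLK4 cells SOX9 again rose and TP63 again fell, which made 2 of 10 called (23.2% of all genes), and 7 of 10 did not overlap (63.8% of all genes). The counts were 5 of 10 without siNT vehicle replicate 2 in the first comparison and 4 of 10 without siMLK4 doxorubicin replicate 3 in the second.

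MLK4 knock-down with vehicle lowered SOX9, MYC and KLF4 and raised FOXC1, 4 of 10 factors called (5.65% of all genes), and 7 of 10 did not overlap (37.8% of all genes). With doxorubicin it lowered MYC and SOX9, 2 of 10 called (5.58% of all genes), and 6 of 10 did not overlap (43.9% of all genes). The difference between the doxorubicin responses of siMLK4 and siNT cells passed both thresholds for 0 of 10 factors (0.276% of all genes, 47 genes in all). It had an unadjusted p under 0.05 for 5 of 10 (14.5% of all genes), and limma-voom on recovered reads also called 0. At an adjusted p under 0.05 with no fold threshold, 1 factor, ELF3, passed for this difference (1.2% of all genes). By the same rule 5 and 8 of 10 passed for doxorubicin in siNT and siMLK4 cells (57.3% and 57.9% of all genes), and 6 and 3 of 10 for knock-down with vehicle and doxorubicin (25.8% and 24.8% of all genes). The comparisons share groups, so their counts are not independent of each other.

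**Figure D1:**
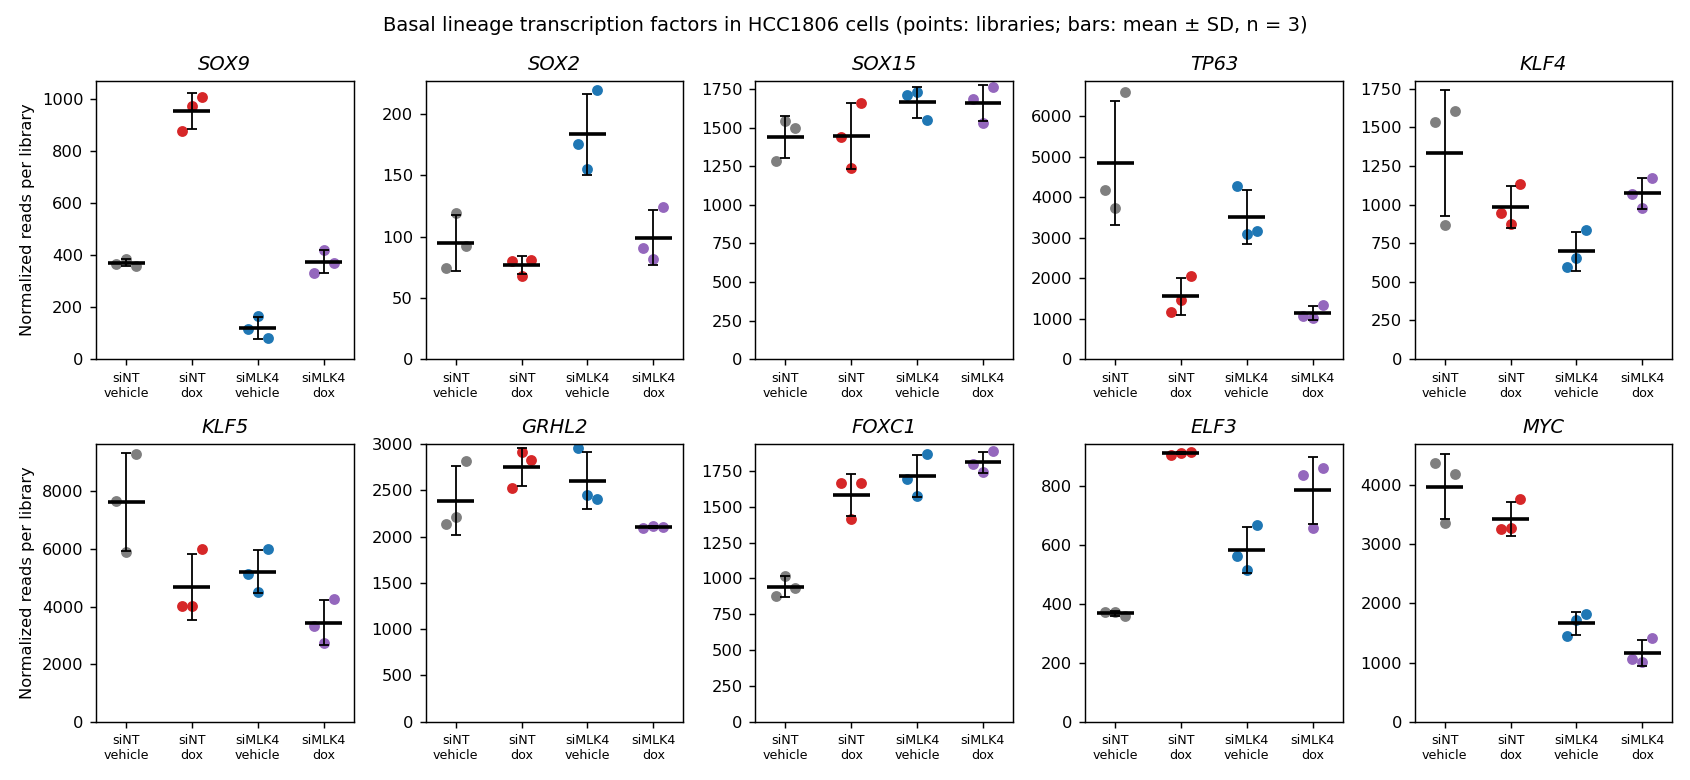
Normalized reads (y axis, from 0, own scale per gene) of the 10 transcription factors in each of the 12 libraries, by group; points are libraries and bars are the mean ± SD (n = 3). SOX9 is lowest in siMLK4 vehicle cells (80.0 to 164.4) and highest in siNT doxorubicin cells (875.8 to 1009), while MYC separates siNT from siMLK4 cells and TP63 separates vehicle from doxorubicin.

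**Figure D2:**
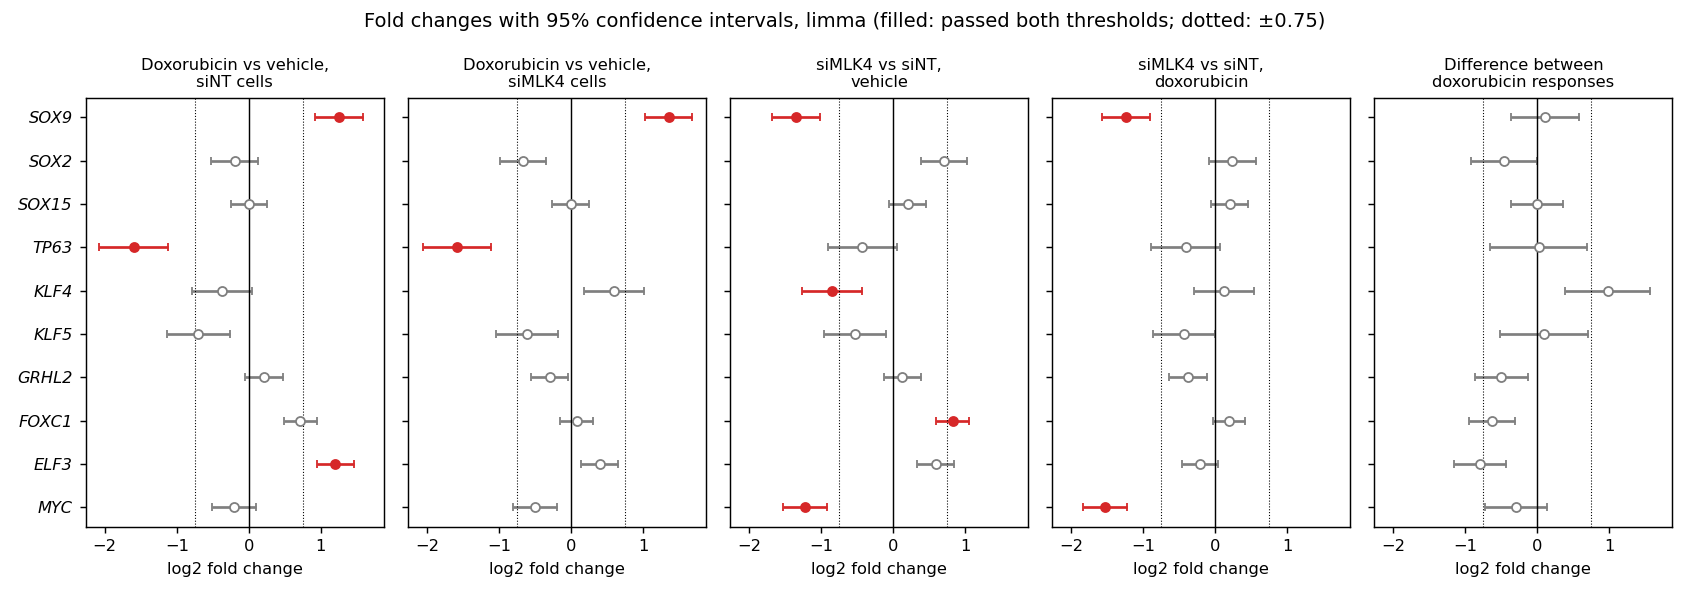
Log2 fold changes (x axis) of the 10 factors with 95% confidence intervals from limma in the 4 comparisons and in the difference between the doxorubicin responses; filled red points passed both thresholds and dotted lines mark ±0.75. SOX9 passed in all 4 comparisons, MYC in both knock-down comparisons and TP63 in both doxorubicin comparisons.

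SOX9 (ENSG00000125398, chr17:72121020-72126416, plus strand, GRCh38) encodes an HMG-box factor of mammary stem and progenitor cells and of cartilage. In siNT cells it stood at 367.5, 385.2 and 359.2 normalized reads with vehicle and at 875.8, 975.2 and 1009 with doxorubicin. After knock-down it stood at 116.2, 164.4 and 80.0 with vehicle and at 331.6, 420.3 and 370.2 with doxorubicin. The siMLK4 doxorubicin libraries spanned the 3 siNT vehicle libraries, whereas the siMLK4 vehicle libraries lay below and the siNT doxorubicin libraries above all others. The group means were 370.6 ± 13.2, 953.3 ± 69.2, 120.2 ± 42.3 and 374.0 ± 44.5 in the order siNT vehicle, siNT doxorubicin, siMLK4 vehicle and siMLK4 doxorubicin.

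SOX9 rose 2.57-fold with doxorubicin in siNT cells (log2 fold change 1.25, SE 0.16, limma adjusted p = 1.327e-05) and 3.11-fold in siMLK4 cells (1.35, SE 0.16, adjusted p = 6.629e-06). Knock-down lowered it to 32.4% of the siNT level with vehicle (−1.35, adjusted p = 3.387e-05) and to 39.2% with doxorubicin (−1.24, adjusted p = 8.19e-05). The difference between the doxorubicin responses was 0.11 on the log2 scale with a 95% interval from −0.36 to 0.58 (limma adjusted p = 0.887), so differences within this interval could not be resolved. All 4 calls of SOX9 were made in each of the 23 alternative analyses. In bulk RNA, fewer cells that express a gene and less RNA per cell cannot be told apart, here and below.

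The antisense transcript SOX9-AS1 spans SOX9 on the other strand, and reads were counted by strand. It had means of 4.44, 13.5, 1.67 and 5.08 normalized reads in the same group order and was not called in any comparison. By Pearson correlation over the 12 libraries, among 11057 genes with a mean of at least 100 normalized reads, the genes most like SOX9 were CDC25A, a phosphatase that activates cyclin-dependent kinases (r = 0.987), NUP54, a nuclear pore protein (0.987), RASSF3, a Ras association domain protein (0.983), and GREM1, a secreted BMP antagonist (0.982). Between them, at rank 3, was ENSG00000112096 (0.984), an identifier that the annotation used here did not match. These values describe likeness over 4 groups that themselves differ in level. GREM1 had means of 1284, 3670, 525.2 and 1109 normalized reads in the order given for SOX9.

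SOX2 (ENSG00000181449, chr3:181711925-181714436, plus strand), a pluripotency factor that is also an oncogene in squamous tumors, had the fewest reads of the factors in all groups but siMLK4 vehicle. It stood at 73.98, 119.4 and 92.05 normalized reads in siNT vehicle, 80.29, 68.2 and 81.11 in siNT doxorubicin, 175.3, 155.4 and 219.5 in siMLK4 vehicle and 90.73, 81.72 and 124.3 in siMLK4 doxorubicin cells. The siMLK4 vehicle libraries were above all others, and the siNT doxorubicin libraries lay within or below the range of siNT vehicle. Knock-down with vehicle gave a ratio of means of 1.93 (log2 fold change 0.71, SE 0.15, limma adjusted p = 0.003773), and doxorubicin in siMLK4 cells gave 53.9% of the vehicle level (−0.66, adjusted p = 0.001825). Both had an adjusted p under 0.01 but stayed under the fold threshold, so SOX2 was not called. With limma-voom on recovered reads the same differences were 0.94 and −0.90 and passed both thresholds, as they did on the log2 scale of normalized reads with a pseudocount of 1 or 8. The knock-down difference also passed with library totals (0.79) and without replicate 2 of siNT vehicle (0.83) or of siMLK4 vehicle (0.79). The doxorubicin difference also passed without siMLK4 vehicle replicate 2 (−0.75) or siMLK4 doxorubicin replicate 3 (−0.79). SOX2 shares 2.03% of its 50-base stretches with transcripts of other genes, most often SOX1. The lncRNA SOX2-OT, which is not in the table, spans SOX2 on the same strand.

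SOX15 (ENSG00000129194, chr17:7588178-7590094, minus strand), a factor of stratified epithelium, had group means of 1443 ± 136, 1448 ± 212, 1667 ± 99.6 and 1660 ± 117 normalized reads in the group order used for SOX9. Its libraries ran from 1240 to 1763 and overlapped in all comparisons but that of siMLK4 with siNT in vehicle. The log2 fold changes ran from −0.01 to 0.20, and the lowest limma adjusted p was 0.231. The 95% interval for doxorubicin in siNT cells was −0.25 to 0.25.

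TP63 (ENSG00000073282, chr3:189631389-189897276, plus strand) encodes p63, and gene-level counts do not separate its full-length and N-terminally truncated forms. It stood at 4185, 3736 and 6590 normalized reads in siNT vehicle cells and at 1152, 1452 and 2054 in siNT doxorubicin cells. The siMLK4 libraries stood at 4269, 3093 and 3167 with vehicle and at 1058, 1009 and 1330 with doxorubicin. Each doxorubicin library was below each vehicle library, and siMLK4 and siNT libraries overlapped under both treatments. TP63 fell to 32.1% of the vehicle level in siNT cells (log2 fold change −1.60, SE 0.22, limma adjusted p = 3.549e-05) and to 32.3% in siMLK4 cells (−1.58, SE 0.22, adjusted p = 3.903e-05). The difference between these responses was 0.02 with a 95% interval from −0.66 to 0.69 (adjusted p = 0.991). Knock-down gave −0.43 with vehicle (95% interval −0.91 to 0.05, adjusted p = 0.178) and −0.41 with doxorubicin (adjusted p = 0.201).

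Within siNT vehicle cells TP63 was highest in replicate 3, and so were KLF5, KLF4 and GRHL2. Libraries of a group also differed in how long genes fared against short ones. The median deviation of genes with at least 8000 exon bases, minus that of genes with at most 2500, was −0.26, 0.07 and 0.29 on the log2 scale in siNT vehicle replicates 1, 2 and 3. It was 0.32, 0.08 and −0.36 in the siMLK4 vehicle replicates. The exons of TP63 cover 7479 bases, and the part of this length difference in the spread of TP63 was not tested.

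KLF5 (ENSG00000102554, chr13:73054976-73077541, plus strand), a zinc finger factor that sustains proliferation of basal epithelial cells, had the highest mean level per length in 3 of 4 groups. Among siNT doxorubicin libraries KLF5 overlapped with SOX15 on that measure. It stood at 7655, 5911 and 9308 normalized reads in siNT vehicle, 4018, 4013 and 6016 in siNT doxorubicin, 5144, 4512 and 5994 in siMLK4 vehicle and 3323, 2722 and 4269 in siMLK4 doxorubicin cells. Within each siRNA, doxorubicin libraries were lower than vehicle libraries except that 1 siNT doxorubicin library (6016) exceeded 1 siNT vehicle library (5911). The doxorubicin difference was −0.70 in siNT cells (SE 0.20, limma adjusted p = 0.008888), under the fold threshold, and −0.61 in siMLK4 cells (adjusted p = 0.01901). Leaving out siNT vehicle replicate 2 gave −0.87 (adjusted p = 0.004373) and leaving out siNT doxorubicin replicate 3 gave −0.89 (adjusted p = 0.002661) in siNT cells, both past the thresholds. Without siMLK4 doxorubicin replicate 3 the difference in siMLK4 cells was −0.77 (adjusted p = 0.007473) and also passed. Knock-down gave −0.53 with vehicle (adjusted p = 0.0696) and −0.44 with doxorubicin (adjusted p = 0.132).

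KLF4 (ENSG00000136826, chr9:107484852-107490482, minus strand), a factor of terminal epithelial differentiation, stood at 1534, 866.9 and 1603 normalized reads in siNT vehicle and at 944.1, 875.4 and 1135 in siNT doxorubicin cells. With knock-down it stood at 598.1, 656.6 and 837.9 with vehicle and at 1070, 974.8 and 1172 with doxorubicin. The siMLK4 vehicle libraries were the lowest, by a narrow margin from siNT vehicle replicate 2. With vehicle, knock-down lowered KLF4 to 52.3% of the siNT level (log2 fold change −0.85, SE 0.19, limma adjusted p = 0.005418). This call was lost without siNT vehicle replicate 1 (−0.73, adjusted p = 0.0222) or 3 (−0.70, adjusted p = 0.0250), without siMLK4 vehicle replicate 1 (−0.76, adjusted p = 0.0223) or 2 (−0.82, adjusted p = 0.0230), with library totals as scaling (−0.71, adjusted p = 0.0111) and with only the groups compared in the fit (adjusted p = 0.0502).

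With doxorubicin the KLF4 libraries of siMLK4 and siNT cells overlapped (0.12, limma adjusted p = 0.693). In siNT cells the doxorubicin difference was −0.38 (adjusted p = 0.109), and 0.59 (adjusted p = 0.0173) was found after knock-down, which passed both thresholds with library totals as scaling (0.77, adjusted p = 0.002511). These responses differed by 0.97 with a 95% interval from 0.38 to 1.56, with an adjusted p of 0.101 that missed the threshold.

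GRHL2 (ENSG00000083307, chr8:101492439-101669726, plus strand), which maintains epithelial junction genes, had group means of 2389 ± 375, 2753 ± 204, 2604 ± 305 and 2104 ± 14.9 normalized reads in the order siNT vehicle, siNT doxorubicin, siMLK4 vehicle and siMLK4 doxorubicin. The siMLK4 doxorubicin libraries lay closest together, at 2091, 2120 and 2101, below all others. GRHL2 was not called in any comparison. Among the 4 comparisons of groups its largest difference was siMLK4 against siNT with doxorubicin (−0.38, SE 0.12, limma adjusted p = 0.0351). Its doxorubicin responses differed by −0.50 (95% interval −0.87 to −0.14, adjusted p = 0.175).

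FOXC1 (ENSG00000054598, chr6:1609915-1613897, plus strand) stood at 876, 1017 and 934 normalized reads in siNT vehicle and at 1664, 1412 and 1668 in siNT doxorubicin cells. In siMLK4 cells it stood at 1694, 1577 and 1866 with vehicle and at 1799, 1739 and 1888 with doxorubicin. The siNT vehicle libraries were well below the other 9, which lay close together. FOXC1 rose 1.82-fold with knock-down in vehicle cells (log2 fold change 0.83, SE 0.11, limma adjusted p = 7.898e-05). The doxorubicin difference in siNT cells was 0.71 (ratio of means 1.68, adjusted p = 5.935e-05), just under the fold threshold, and it passed with library totals as scaling (0.94) and when replicate 2 of siNT vehicle (0.77) or of siNT doxorubicin (0.79) was left out. In siMLK4 cells it was 0.08 (95% interval −0.15 to 0.30), and these responses differed by −0.63 (95% interval −0.95 to −0.32, adjusted p = 0.0563).

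ELF3 (ENSG00000163435, chr1:202007945-202017183, plus strand), an ETS factor of epithelial differentiation that is induced by inflammatory signals, stood at 371.1, 373.7 and 359.2 normalized reads in siNT vehicle and at 907.1, 914.1 and 914.5 in siNT doxorubicin cells. The siMLK4 values were 564.1, 514.1 and 668.1 with vehicle and 837.8, 656.2 and 861.9 with doxorubicin. The siNT libraries were tightly grouped at a low and a high level, and the siMLK4 libraries lay between them, with 1 siMLK4 doxorubicin library (656.2) under the highest siMLK4 vehicle library. ELF3 rose 2.48-fold with doxorubicin in siNT cells (log2 fold change 1.20, SE 0.12, limma adjusted p = 1.828e-06). In siMLK4 cells the difference was 0.40 (ratio of means 1.35, adjusted p = 0.0102), which missed both thresholds. The responses differed by −0.80 (SE 0.17, 95% interval −1.16 to −0.44, adjusted p = 0.0333), past 0.05 but not 0.01. Knock-down gave 0.59 with vehicle (ratio 1.58, adjusted p = 0.002564), under the fold threshold, and −0.21 with doxorubicin (adjusted p = 0.213).

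The lncRNA ELF3-AS1 overlaps the 5′ part of ELF3 on the other strand. Of 6 noncoding neighbours of the factors, 4 were measured, and ELF3-AS1 was the 1 called, in both knock-down comparisons (5.65% and 5.58% of all genes). For doxorubicin in siNT cells 0 were called (22.7% of all genes), but 2 were higher with library totals as scaling and 1 without siNT doxorubicin replicate 3. It had means of 67.2 and 129.3 normalized reads in siNT vehicle and doxorubicin cells and of 240.1 and 258.8 in siMLK4 cells, and it rose with knock-down both with vehicle (1.35, limma adjusted p = 1.099e-05) and with doxorubicin (0.78, adjusted p = 0.0008916). The call with doxorubicin was lost without siNT doxorubicin replicate 2 or siMLK4 doxorubicin replicate 3. ELF3 itself shares 8.09% of its 50-base stretches with transcripts of other genes, most often an unnamed lncRNA that overlaps it on the same strand.

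MYC (ENSG00000136997, chr8:127735434-127742951, plus strand) stood at 4380, 3354 and 4191 normalized reads in siNT vehicle and at 3257, 3271 and 3758 in siNT doxorubicin cells. Its siMLK4 values were 1446, 1723 and 1815 with vehicle and 1061, 1018 and 1408 with doxorubicin. All 6 siMLK4 libraries were below all 6 siNT libraries. MYC fell with knock-down to 41.8% of the siNT level with vehicle (log2 fold change −1.23, SE 0.14, limma adjusted p = 3.539e-05) and to 33.9% with doxorubicin (−1.53, SE 0.14, adjusted p = 7.725e-06). The doxorubicin difference was −0.20 in control siNT cells (adjusted p = 0.234). After knock-down it was −0.50 (adjusted p = 0.007498), under the fold threshold. The responses differed by −0.30 (95% interval −0.73 to 0.13, adjusted p = 0.554).

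MYC acts with MAX, and the MXD proteins compete with it. Of 9 genes of this network, knock-down with vehicle changed 1 (5.65% of all genes) and lowered MXD1, from a mean of 1165 to 485.1 normalized reads (log2 fold change −1.18, limma adjusted p = 0.0001091). With library totals, and without replicate 1 of either vehicle group, 1 gene was also higher. With doxorubicin knock-down changed 2 (5.58% of all genes): it lowered MXD1, from 1613 to 933.8 (−0.77, adjusted p = 0.002733), and raised MXD3, from 175.4 to 399.2 (1.02, adjusted p = 0.0007539). The number higher was 2 under TMM scaling, with library totals and without siNT doxorubicin replicate 1 or siMLK4 doxorubicin replicate 3. The MXD1 call with doxorubicin was lost under TMM scaling, with library totals and without any 1 of 4 of the 6 libraries compared (siNT replicates 2 and 3 and siMLK4 replicates 1 and 3).

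The list of known MYC targets held 30 genes, of ribosome production, nucleotide and polyamine synthesis and other functions, such as TERT. Of these, 30 had a negative log2 fold change with knock-down in vehicle cells. The median was −0.52, against 0.01 over all 17013 genes. In all, 3 were called, each of them lower (3.14% of all genes were lower): NOLC1, a nucleolar chaperone (6184 to 3259 normalized reads, −0.92, limma adjusted p = 5.649e-05), NOP16, a ribosome biogenesis factor (1267 to 648.9, −0.90, lost with only the groups compared in the fit), and WDR43, a subunit of the pre-rRNA processing complex (9036 to 5133, −0.81, lost with only the groups compared, with library totals and without siNT vehicle replicate 3 or siMLK4 vehicle replicate 3). The count was 1 with only the groups compared in the fit, 2 with library totals as scaling, 7 without siMLK4 vehicle replicate 2 and 5 without siNT vehicle replicate 1. At an adjusted p under 0.05 with no fold threshold, 20 of 30 passed (25.8% of all genes). With doxorubicin 27 of 30 were negative (median −0.43, against 0.02 over all genes), and NOLC1 (−1.01, adjusted p = 3.171e-05) and the RNA helicase DDX18 (−0.82, adjusted p = 4.137e-05, lost with library totals) were called lower (2.93% of all genes were lower), or 4 targets without siNT doxorubicin replicate 1.

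Doxorubicin itself lowered 4 of the 30 MYC targets in siNT cells (10.6% of all genes were lower), among them CAD, a pyrimidine synthesis enzyme (−0.99), SRM, the spermidine synthase (−0.85, lost with library totals and without siNT doxorubicin replicate 2), and TERT, the telomerase subunit. TERT had a mean of 69.4 normalized reads with vehicle and 1.94 with doxorubicin, at the floor of 3 reads per library. In siMLK4 cells (10.6% of all genes lower and 12.6% higher) it lowered TERT (44.9 to 4.27) and NPM1, a nucleolar protein (−0.99), and raised WDR74 (1.41). Without siNT vehicle replicate 3 the lower count was 7 in siNT cells, with library totals it was 2 there, and without siMLK4 vehicle replicate 3 it was 4 in siMLK4 cells. Over the list, the median was −0.34 without and −0.20 with knock-down, and −0.11 and −0.05 with library totals as scaling. Of 12 genes that set the stability of MYC or related proteins, doxorubicin changed 3 in siNT cells (22.7% of all genes) and 1 in siMLK4 cells (23.2%). With library totals as scaling 1 was higher and 2 lower in siNT cells and 4 were higher in siMLK4 cells, and without siMLK4 vehicle replicate 3 there were 1 higher and 1 lower in siMLK4 cells. The drug lowered the ubiquitin ligase subunit SKP2 (2214 to 744.8 normalized reads), the mitotic kinase PLK1 (−1.23) and the deubiquitinase USP28 (−0.89, lost without siNT vehicle replicate 3 or with library totals) in siNT cells and raised USP37 (0.81, lost without siMLK4 vehicle replicate 3 or siMLK4 doxorubicin replicate 2) in siMLK4 cells. Knock-down changed 0 of 12 with vehicle and 0 of 12 with doxorubicin (5.65% and 5.58% of all genes). In vehicle cells 1 was lower without siNT vehicle replicate 1 or 2 or siMLK4 vehicle replicate 1. In doxorubicin cells 1 was higher with library totals. By adjusted p under 0.05 alone, 3 of 12 passed for knock-down with vehicle (25.8% of all genes) and 8 of 12 with doxorubicin (24.8% of all genes).

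**Figure D3:**
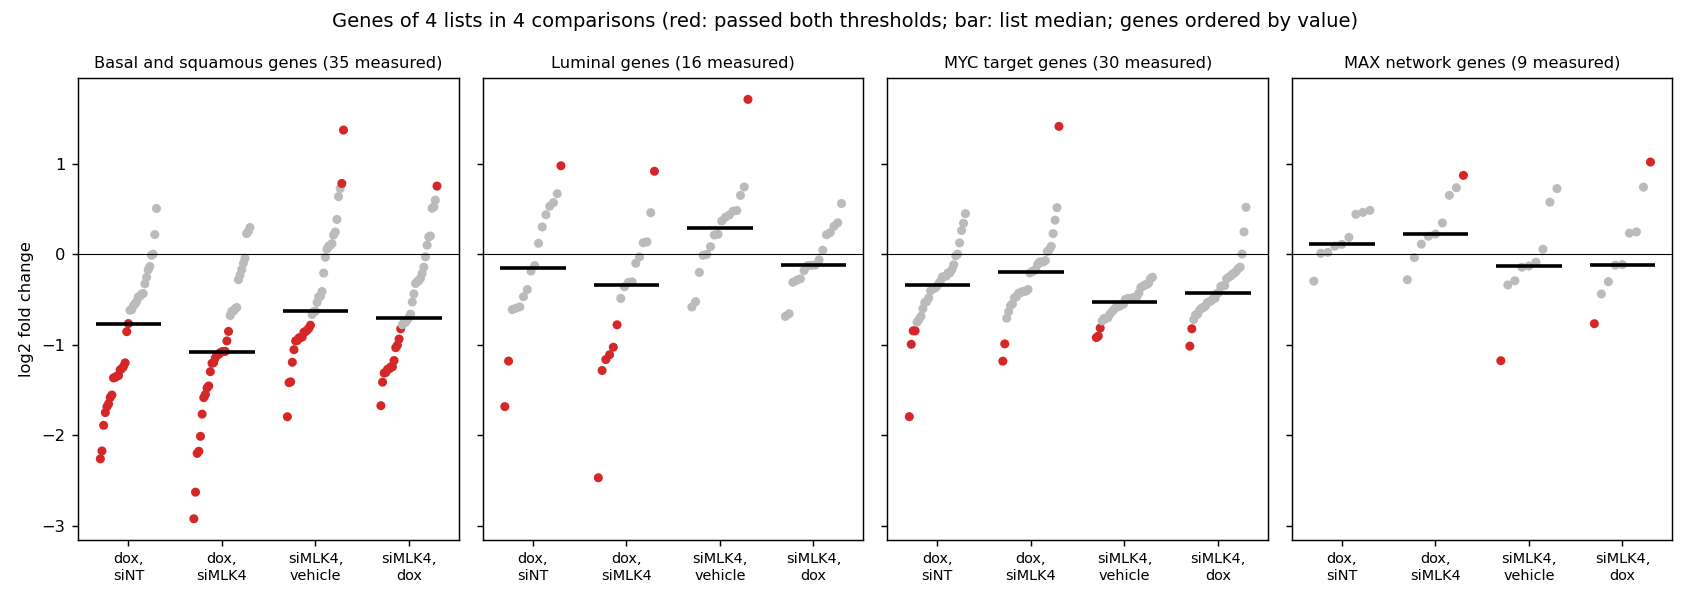
Log2 fold changes (y axis) of 35 basal and squamous, 16 luminal, 30 MYC target and 9 MAX network genes in the 4 comparisons (x axis); each point is a gene, ordered by value, red points passed both thresholds and bars are list medians. All 30 MYC targets lie below 0 for siMLK4 against siNT with vehicle, and the basal and squamous genes have medians from −1.08 to −0.63.

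Compared per length, as RPKM (reads scaled to the union of exons and to the library total), KLF5 led in siNT vehicle cells (102 ± 22.1), followed by SOX15 (48.6 ± 5.29), MYC (32.0 ± 3.95), TP63 (31.9 ± 10.1), GRHL2 (19.5 ± 3.09), KLF4 (17.9 ± 5.28), FOXC1 (11.7 ± 1.07), SOX9 (4.65 ± 0.22), ELF3 (2.52 ± 0.07) and SOX2 (1.87 ± 0.48). Neighbours whose libraries overlapped were MYC and TP63, GRHL2 and KLF4, and KLF4 and FOXC1. SOX9 ranked 8 of 10 there, 7 in siNT doxorubicin cells (14.1 ± 0.85), where its libraries overlapped those of KLF4 above and TP63 below, 10 in siMLK4 vehicle cells (1.67 ± 0.61), apart from SOX2 above it (3.96 ± 0.63), and 9 in siMLK4 doxorubicin cells (5.89 ± 0.70). In siMLK4 doxorubicin cells the SOX9 libraries overlapped those of ELF3 above. MYC ranked 3 in both siNT groups and 6 in both siMLK4 groups (14.8 ± 1.49 with vehicle and 11.8 ± 2.03 with doxorubicin). Its libraries overlapped those of TP63 below in siMLK4 doxorubicin cells. FOXC1 ranked 7, 5, 5 and 3 in the 4 groups, reaching 28.1 ± 0.92 in siMLK4 doxorubicin cells, where SOX15 led (70.1 ± 4.47) and overlapped with KLF5 (57.7 ± 12.5). FOXC1 libraries overlapped those of GRHL2 above in siNT doxorubicin and siMLK4 vehicle cells. KLF5 and SOX15 libraries also overlapped in siNT doxorubicin cells. The union of exons covers all annotated transcripts of a gene, 15 for MYC and 10 for ELF3 but 1 each for SOX9 and FOXC1. RPKM is understated where the transcripts present are shorter than the union, so ranks between genes depend on the annotation.

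**Figure D4:**
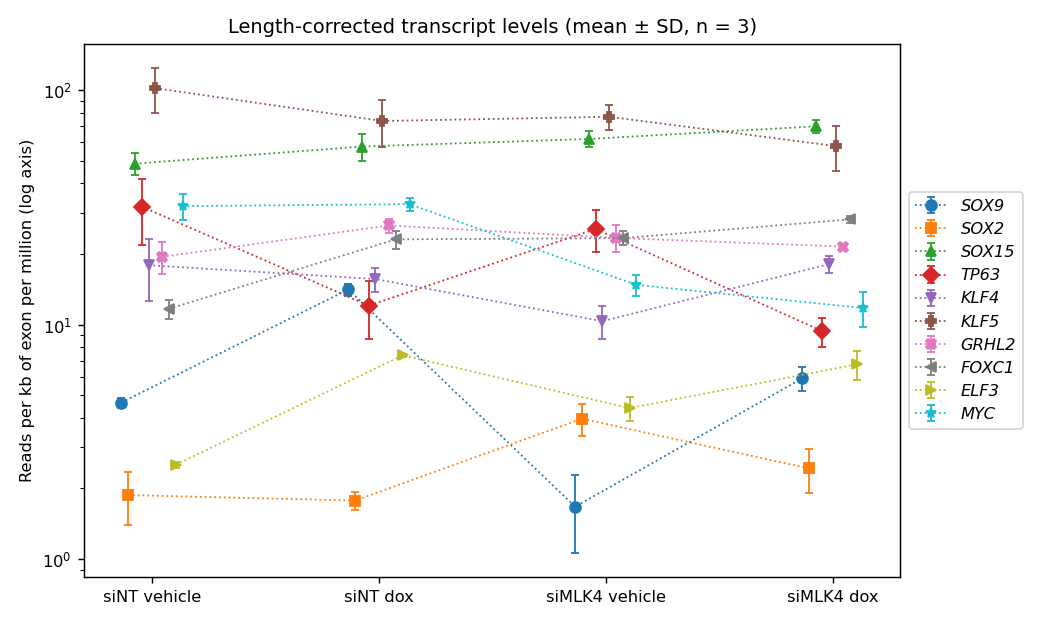
RPKM (log y axis, mean ± SD, n = 3) of the 10 factors in the 4 groups (x axis); dotted lines join a gene's means only to guide the eye. KLF5 and SOX15 hold the top places in each group, and SOX9 runs from 1.67 in siMLK4 vehicle to 14.1 in siNT doxorubicin cells.

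Of 35 genes that mark basal and squamous epithelium, doxorubicin lowered 18 in siNT cells (10.6% of all genes were lower) and raised 0, with a median log2 fold change of −0.76. In siMLK4 cells it lowered 22 (10.6% of all genes) and raised 0, with a median of −1.08. FAT2, an atypical cadherin (3079 to 569.0 normalized reads, −2.26, limma adjusted p = 5.787e-05), FGFBP1, an FGF-binding secreted protein (2648 to 545.5, −2.17), and CLCA2, a membrane protein of stratified epithelium (696.2 to 146.2, −1.89), had the lowest log2 fold changes on the variance-stabilized scale in siNT cells. FGFBP1 (1370 to 139.3, −2.92) and the basal keratins KRT15 (629.2 to 61.4, −2.63) and KRT5 (32260 to 7035, −2.20) had the lowest on that scale in siMLK4 cells. The list summed to 205900 to 220500 normalized reads per siNT vehicle library and to 132300 to 148600 with doxorubicin, and it was 142600 to 159400 in siMLK4 vehicle and 77780 to 83370 in siMLK4 doxorubicin libraries.

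MLK4 knock-down with vehicle lowered 15 of the 35 (3.14% of all genes were lower) and raised 2 (median −0.63). The laminin chain LAMA3 (8365 to 3143 normalized reads, −1.42, limma adjusted p = 0.001479, lost with only the groups compared in the fit) and the keratin KRT6B (69.6 to 6.50, −1.41) fell, whereas FGFR2, an FGF receptor (429.3 to 1194, 1.37), and KRT15 (338.0 to 629.2, 0.78, lost without siMLK4 vehicle replicate 3 and with only the groups compared in the fit) rose. With library totals as scaling, 9 were lower and 4 higher, with only the groups compared in the fit 8 were lower, and leaving out 1 library gave 10 to 14 lower. With doxorubicin, knock-down lowered 13 (2.93% of all genes were lower), among them FGFBP1 (545.5 to 139.3, −1.67), the desmosomal cadherin DSC3 (1804 to 643.7, −1.41) and KRT6B (46.9 to 2.89, −1.31), and raised the Notch ligand JAG2 (339.0 to 600.8, 0.75), with a median of −0.70. The JAG2 call was lost without any 1 of 4 of the 6 libraries compared (siNT replicates 2 and 3 and siMLK4 replicates 1 and 2).

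Of 20 luminal genes, 16 were measured, and SPDEF, TFF1, TFF3 and PRLR were not in the table. Doxorubicin lowered the keratins KRT19 (24870 to 7738 normalized reads, −1.68, limma adjusted p = 3.077e-05) and KRT18 (20690 to 9104, −1.18) in siNT cells, where PGR was the 1 gene higher, or 3 of 16 called (22.7% of all genes). With library totals as scaling 4 were higher there, and without siNT doxorubicin replicate 1 there were 2. In siMLK4 cells 7 of 16 were called (23.2% of all genes), of which it lowered 6, with KRT19 (−2.47), KRT18 (−1.28) and KIT (−1.16) lowest on the variance-stabilized scale. Knock-down with vehicle raised 1 of 16, the receptor tyrosine kinase KIT (71.0 to 340.2, 1.71, adjusted p = 1.366e-06), against 5.65% of all genes changed. Of the 16, 12 had a positive log2 fold change, with a median of 0.30 against 0.01 over all genes, and 6 passed an adjusted p under 0.05 alone (25.8% of all genes). Knock-down raised 2 with library totals and without replicate 1 or 3 of siNT vehicle or replicate 1 or 2 of siMLK4 vehicle. With doxorubicin 0 of 16 were called (5.58% of all genes), or 2 lower without siMLK4 doxorubicin replicate 3, and by an adjusted p under 0.05 alone 3 passed (24.8% of all genes). KIT was also the 1 of 16 luminal genes whose doxorubicin responses differed past both thresholds (0.276% of all genes). Its difference was −1.83 (limma adjusted p = 0.001605), a call lost without siMLK4 doxorubicin replicate 1.

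Among 36 relatives of the 10 factors, 32 were measured, and SOX5, SOX10, SOX21 and MYCN were not in the table. Doxorubicin raised 6 and lowered 2 in siNT cells (22.7% of all genes changed) and did so for 6 and 2 in siMLK4 cells (23.2%). KLF10, a TGF-β response gene (1674 to 4131 normalized reads, 1.28, limma adjusted p = 7.735e-07), and SOX4 (360.9 to 743.9, 0.95) rose and SOX7 (−1.53) and SOX6 (−1.01) fell in siNT cells. In siMLK4 cells KLF10 (1.37) rose and SOX6 (−1.47) and SOX7 (−1.41) fell, and SOX11 went from a mean of 2.11 to 25.9 normalized reads. The number raised there was 3 without replicate 1 or 2 of either siMLK4 group. Knock-down with vehicle raised SOX4 (360.9 to 767.3, 0.98), SOX6 (72.6 to 184.6, 0.97) and KLF8 (0.78, lost with only the groups compared in the fit and without siNT vehicle replicate 1 or 2 or siMLK4 vehicle replicate 1) and lowered EHF, an ETS factor close to ELF3, which made 4 of 32 called (5.65% of all genes). The number lower was 3 without siMLK4 vehicle replicate 1 and 2 without siNT vehicle replicate 1. With doxorubicin EHF was the 1 of 32 called (5.58% of all genes). EHF was lower both with vehicle (8273 to 4728, −0.78, adjusted p = 0.006124) and with doxorubicin (8119 to 4206, −0.93, adjusted p = 0.002202). The first of these EHF calls was lost in 9 of 23 alternatives. Among them were the replicate block, library totals, only the groups compared, and leaving out replicate 2 or 3 of either vehicle group. The second was lost when replicate 2 or 3 of siNT doxorubicin or replicate 1 of siMLK4 doxorubicin was left out.

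Of 18 other epithelial factors, all measured, doxorubicin raised OVOL1, a repressor of epithelial dedifferentiation (441.6 to 1533 normalized reads, 1.68, limma adjusted p = 4.977e-08), EN1 (1.02), OVOL2 (0.93) and TFAP2C in siNT cells, and lowered 0, so that 4 of 18 were called (22.7% of all genes). The number lower was 2 without siNT doxorubicin replicate 3, and 1 under TMM scaling and without siNT vehicle replicate 1 or 2. In siMLK4 cells 7 of 18 were called (23.2% of all genes). The drug raised 5 there, with OVOL1 (1.62), RUNX3 (0.90) and OVOL2 (0.81) highest on the variance-stabilized scale, or 3 without siMLK4 vehicle replicate 2, and lowered SNAI2, a basal and mesenchymal repressor (−1.09), and ZNF750, a differentiation factor downstream of p63 (−0.99). Knock-down raised BCL11A, a factor of basal-like tumors, with vehicle (136.7 to 282.1, 0.84) and with doxorubicin (96.1 to 225.2, 0.89), and with doxorubicin it lowered SNAI2 (−0.87) and BNC1, a basal keratinocyte factor (−0.82), which made 1 and 3 of 18 called (5.65% and 5.58% of all genes). The BCL11A call with vehicle was lost without siNT vehicle replicate 2 or any siMLK4 vehicle library, and 1 factor was lower without siNT vehicle replicate 1 or siMLK4 vehicle replicate 3. The other 3 knock-down calls were lost without siNT doxorubicin replicate 3 or siMLK4 doxorubicin replicate 1 or 2, those of BCL11A and BNC1 also without siNT doxorubicin replicate 2, and that of BNC1 with library totals.

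Of 9 genes that SOX9 activates in cartilage, 6 were measured, and ACAN, COL9A1 and HAPLN1 were not in the table. Their summed level was 156.0 to 191.4 normalized reads in siNT vehicle, 192.4 to 209.5 in siNT doxorubicin, 282.0 to 378.4 in siMLK4 vehicle and 321.9 to 379.2 in siMLK4 doxorubicin libraries. Doxorubicin changed 1 of the 6 in siNT cells and 2 in siMLK4 cells (22.7% and 23.2% of all genes), and with library totals as scaling 2 were higher in each. With limma-voom 3 were higher and 2 lower in siNT cells, and 2 higher and 1 lower in siMLK4 cells. That fit called 5407 and 5605 of all 17013 genes. By an adjusted p under 0.05 alone, 6 and 4 of the 6 passed (57.3% and 57.9% of all genes). Knock-down changed 0 with vehicle and 1 with doxorubicin (5.65% and 5.58% of all genes). MATN3 rose with doxorubicin (3.93 to 36.8 normalized reads in siNT and 8.47 to 53.4 in siMLK4 cells), COL9A3 fell with doxorubicin in siMLK4 cells (79.9 to 19.6), and COL9A2 rose with knock-down under doxorubicin (54.0 to 131.2, 0.83, limma adjusted p = 0.0008956, lost without siMLK4 doxorubicin replicate 3).

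Of 14 markers of stromal, blood and endothelial cells, 8 were not in the table, among them COL1A2, COL3A1, DCN, CD3E, CD68, LYZ and PECAM1. The summed level of the other 6 was 429.8 to 514.3 normalized reads in siNT vehicle, 441.0 to 529.7 in siNT doxorubicin, 709.4 to 925.4 in siMLK4 vehicle and 645.3 to 698.6 in siMLK4 doxorubicin libraries. COL1A1 was the most abundant, with means of 286.2 and 528.8 in siNT and siMLK4 vehicle cells, and it was the 1 of 6 called with knock-down in vehicle cells (5.65% of all genes), where it rose (0.78, limma adjusted p = 0.0004121, lost without siNT vehicle replicate 3 or siMLK4 vehicle replicate 3). Doxorubicin changed 2 of the 6 in siNT cells and 3 in siMLK4 cells (22.7% and 23.2% of all genes). It raised ACTA2 (16.5 to 151.2 in siNT and 18.8 to 168.7 in siMLK4 cells) and lowered LUM (138.3 to 21.1 and 190.4 to 16.5) in both, and PTPRC went from a mean of 1.75, at the floor, to 17.9 in siMLK4 cells, a call lost without siMLK4 vehicle replicate 1. The number lower there was 2 without siMLK4 vehicle replicate 2 or siMLK4 doxorubicin replicate 1. The part of these transcripts in the levels of the 10 factors was not tested.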

How the data were processed

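Per the labels and the supplementary methods, the authors trimmed reads from KAPA RNA HyperPrep libraries with Trimmomatic 0.39, aligned them with HISAT2, removed optical duplicates, counted reads by strand with HTSeq 0.6.0 and used DESeq2 1.26.0. The submitters' processing notes name hg19 and the methods name GRCh38, and the table gives Ensembl identifiers only, so coordinates are those of GENCODE release 44 (GRCh38), which matched 16957 of 17013 genes. The deposited values of the 12 libraries are variance-stabilized log2 values, as their own distribution shows. Inverting the transformation returned whole reads (tolerance 0.05) for 100% of values, with size factors from 0.852 to 1.199. Reads carry no molecular identifiers, so floors (3 reads) cover counting error only.

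Values were fitted with limma 3.58.1 in R 4.3.3 (4 group means, eBayes with a variance trend, all libraries), and the code was tested on simulated data. Exact permutation of 3 against 3 libraries cannot give a p under 0.1 and was not used. The factors, lists and tests were chosen with earlier results of these data known. Named are the 10 factors, MAP3K21, ESR1, PGR, ERBB2, the genes most like SOX9 and, per list, comparison and direction, up to 3 called genes of largest fold change whose libraries do not overlap. The keratin levels of siNT vehicle cells and TFAP2C were added after seeing values. Some genes that the rule names are not reported here. Libraries with equal numbers deviated together over all genes (correlation over 0.1 in 3 of 3 pairs) for doxorubicin in siNT cells (0.46, 0.11 and 0.21) and for knock-down with doxorubicin (0.19, 0.52 and 0.56), a pairing read from the values alone, and not in the other comparisons. Alternatives were TMM and library totals as scaling, a minimum of 10 reads in each library, only the groups compared, a replicate block, limma-voom, pseudocounts of 1 and 8, no variance trend, other thresholds, and leaving out each library.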

Additional observations from a re-analysis of the deposited data

Results flagged for a closer look

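The doxorubicin response of ELF3 differed between siMLK4 and siNT cells by −0.80 on the log2 scale (limma, test of the difference itself, SE 0.17, Benjamini-Hochberg adjusted p = 0.0333). With doxorubicin, ELF3 went from 368.0 ± 7.72 to 911.9 ± 4.15 normalized reads (SD, n = 3) without knock-down. With knock-down it went from 582.1 ± 78.6 to 785.3 ± 112. The adjusted p ran from 0.0237 to 0.0824 over the 22 alternatives, and none of the fits that kept the thresholds of 0.01 and 0.75 called it.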

How the results depend on the processing

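No result changed direction past a threshold under any alternative, and the 4 SOX9 calls, both MYC calls, both TP63 calls and the ELF3 call in siNT cells were made in each of 23 alternatives. At an adjusted p under 0.05 with no fold threshold, 5, 8, 6 and 3 of 10 factors passed for doxorubicin in siNT cells, doxorubicin in siMLK4 cells, and knock-down with vehicle and with doxorubicin, and 1 for the difference between responses. With a fold threshold of 1 on the log2 scale, 2 factors passed for knock-down with vehicle. Leaving out 1 library gave 3 to 5, 2 to 4, 3 to 5, always 2 and always 0 factors in that order, with 5 without siNT vehicle replicate 2 (doxorubicin in siNT cells) and 4 without siMLK4 doxorubicin replicate 3 (doxorubicin in siMLK4 cells). The replicate block left the counts of factors at 3, 2, 4, 2 and 0 and changed no call of a factor, and over all genes it gave 3854, 3937, 951, 945 and 40 calls. In knock-down with vehicle the numbers did not pair the libraries (correlations −0.72, 0.33 and −0.52). There the block gave 13 lower basal and squamous genes and ended the EHF call.

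Over all genes, knock-down with vehicle gave 961 calls, 611 with only the groups compared, 1483 with limma-voom and 1613 with a pseudocount of 1. The difference between responses gave 47, from 0 (without siMLK4 doxorubicin replicate 1) to 37 with 1 library left out. Library totals as scaling moved the median of all genes to 0.18, 0.16, 0.11 and 0.09 in the 4 comparisons and the split of higher and lower calls for knock-down with vehicle from 427 and 534 to 632 and 346. For the genes with few reads, such as PGR, SOX9-AS1 and MATN3, depth limits the fold change. The rises of PGR, SOX11 and PTPRC from 0 or few reads came in doxorubicin libraries, where fewer of all genes had 0 reads. The difference between responses could not be fitted with only 2 groups.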
